A study of Homo sapiens with 12 samples.

Results

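The genes described here control the sterol-sensing arm of lipid metabolism: SREBF1 and SREBF2 (the SREBP transcription factors), SCAP and INSIG1 (their escort and retention proteins), VLDLR, STARD4 and MYLIP (lipoprotein uptake and sterol carriage), and ABCA1 and ABCG1 (sterol export). They are the 9 rows, of 60707 genes in the deposited count table, whose gene identifiers map to these symbols. All 12 libraries came from Raji, a cell line of Burkitt lymphoma, which is a germinal-centre B-cell tumour. Every library carries the genotype label Smarca4+/+, and the study's design text places the cells in an auxin-inducible degron system, in which SMARCA4, the ATPase of the SWI/SNF chromatin remodeller, can be degraded as a protein. Cells were gated as GFP_HIGH or GFP_LOW, received DMSO (the vehicle) or FX1 (a compound that blocks the BTB domain of the repressor BCL6), and were collected at 24 h, with 3 libraries in each of the 4 groups. The dose of FX1, the link between GFP and SMARCA4 protein, and whether replicate libraries stem from different cultures are not in the labels. P-values therefore reflect the spread among these libraries alone, which may be technical. In these bulk libraries, fewer cells that express a gene and less of its RNA per cell cannot be told apart.

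SREBPs are made as membrane proteins of the endoplasmic reticulum. When sterols are scarce, SCAP escorts them to the Golgi, where proteases release the part that enters the nucleus and switches on genes of sterol synthesis and uptake. When sterols are plentiful, INSIG proteins hold SCAP back. INSIG1 and STARD4 are themselves SREBP targets. The LXR nuclear receptors work in the opposite setting: bound by oxysterols, they switch on the exporters ABCA1 and ABCG1 and also MYLIP, a ubiquitin ligase that sends lipoprotein receptors to degradation. SREBF1 is a target of LXR as well as of the SREBPs.

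The RefSeq promoter windows (assembly GRCh38.p14, 250 bases before the start to 50 after) held 8 of the 9 genes. The 250 bases before each start were searched on both strands for the sterol regulatory element TCACNCCAC, the E-box type sterol element ATCACNTGA, the LXR-type direct repeat (GGTNA and GGTCA in this order with 5 bases between) and the CCAAT box to which NF-Y binds. Each of the first 3 occurred in 1 of the 8 genes, and these windows are shown because they carry the only such matches among the genes described. Capitals mark the matches, and positions count back from the RefSeq start.
SREBF2 promoter: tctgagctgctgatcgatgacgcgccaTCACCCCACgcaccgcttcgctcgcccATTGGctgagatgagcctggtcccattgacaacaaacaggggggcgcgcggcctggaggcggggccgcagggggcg
INSIG1 promoter: ccgggcaggcTCACGTGATgcgggccccgc
ABCA1 promoter: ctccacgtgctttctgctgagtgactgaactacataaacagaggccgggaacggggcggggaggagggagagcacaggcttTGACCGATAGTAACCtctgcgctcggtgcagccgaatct
The SREBF2 stretch is chr22:41832945-41833074 on the plus strand, with the sterol element 133 to 125 bases before the start and a CCAAT box, read on the other strand, at 106 to 102. The gene itself, counted from 41833079, shares exon bases with the antisense gene SREBF2-AS1. The INSIG1 stretch is chr7:155297812-155297841 on the plus strand, with the E-box type element read on the other strand at 56 to 48. INSIG1 as counted in the deposited table starts earlier, at 155297776, so this stretch lies inside the counted gene. The ABCA1 stretch is chr9:104928186-104928305 on the minus strand, with the LXR-type repeat read on the other strand at 69 to 55. Over all 35116 windows of 27305 genes, the sterol element was present in 0.883%, the E-box type element in 0.712%, the repeat in 0.216% and the CCAAT box in 32%. The CCAAT box was in the windows of 4 of the 8 genes: SREBF2, INSIG1, STARD4 and MYLIP.

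Both SREBP genes also host a microRNA known to repress ABCA1, and the mature forms are shown because their seeds, bases 2 to 8 in capitals, are the same.
hsa-miR-33a-5p: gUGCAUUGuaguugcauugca
hsa-miR-33b-5p: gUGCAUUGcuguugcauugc
The first lies at chr22:41900949-41900969 on the plus strand inside SREBF2, and the second at chr17:17813897-17813916 on the minus strand inside SREBF1. Their hairpin genes had 0 to 5 and 1 to 7 counts per library in this RNA preparation, so no change in them was read.

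Library totals lay between 20454028 and 42556661 counts. SMARCA4 RNA stood between 376 and 460.4 CPM (a gene's share of the library's reads, scaled by TMM) in the 12 libraries, which says nothing of the protein that the degron removes. With FX1 it was higher in GFP-low cells (log2 0.21 ± 0.015 SE, edgeR adjusted p = 1.21e-31). In GFP-high cells it was not called (0.03 ± 0.015, adjusted p = 0.0771). With each library's trend on GC content and length removed, the SMARCA4 values were -0.25 in both gates. BCL6 RNA was lower with FX1, at 196 to 226 CPM against 329 to 401 with DMSO. The B-cell markers, 6 of 6 detected, summed to 1791 to 2661 CPM as group means. The T and NK cell list summed to 2.67 to 6.25 CPM with CD8A at 0, the myeloid list to 0.708 to 1.32 CPM with CD163 at 0, and the hepatocyte list to 0.0404 to 0.172 CPM with TTR at 0. Mitochondrial genes took 7.84% to 7.91% of counts in GFP-high DMSO libraries and 4.23% to 5.13% in the other 9. Transcript GC content ran from 34.2% in STARD4 to 62.8% in SREBF1, against a median of 47.65% over tested genes. Values freed of each library's trend on GC content and length are given for the main changes they make. Of the 9 genes, 8 passed the low-count filter, and only ABCG1 did not.

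With FX1, the genes for VLDLR, STARD4, INSIG1, MYLIP and SREBF2 fell and those for SCAP and ABCA1 rose in both gates. The falls were deepest for VLDLR, 8.75-fold in GFP-high and 7.76-fold in GFP-low cells, followed by STARD4 at 2.33-fold and 3.28-fold. SREBF1 fell in GFP-high cells and was not called in GFP-low cells. In GFP-high cells 8 of 8 tested genes passed an adjusted p of 0.05 (edgeR quasi-likelihood test, Benjamini-Hochberg over 17859 genes), 2 higher and 6 lower. Over all tested genes 68.4% passed that threshold, 33.8% higher and 34.6% lower, so passing it sets these genes apart little. In GFP-low cells 7 of 8 passed, 2 higher and 5 lower, where 68% of all tested genes passed, 33.7% higher and 34.3% lower. The median log2 difference of the 8 genes was -0.52 in GFP-high and -0.39 in GFP-low cells, against -0.01 and -0.01 over all tested genes. Against a floor of 1.5-fold, which 20.6% and 20.2% of all genes passed, SCAP, INSIG1, VLDLR, STARD4 and ABCA1 passed in each gate.

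**Figure D1:**
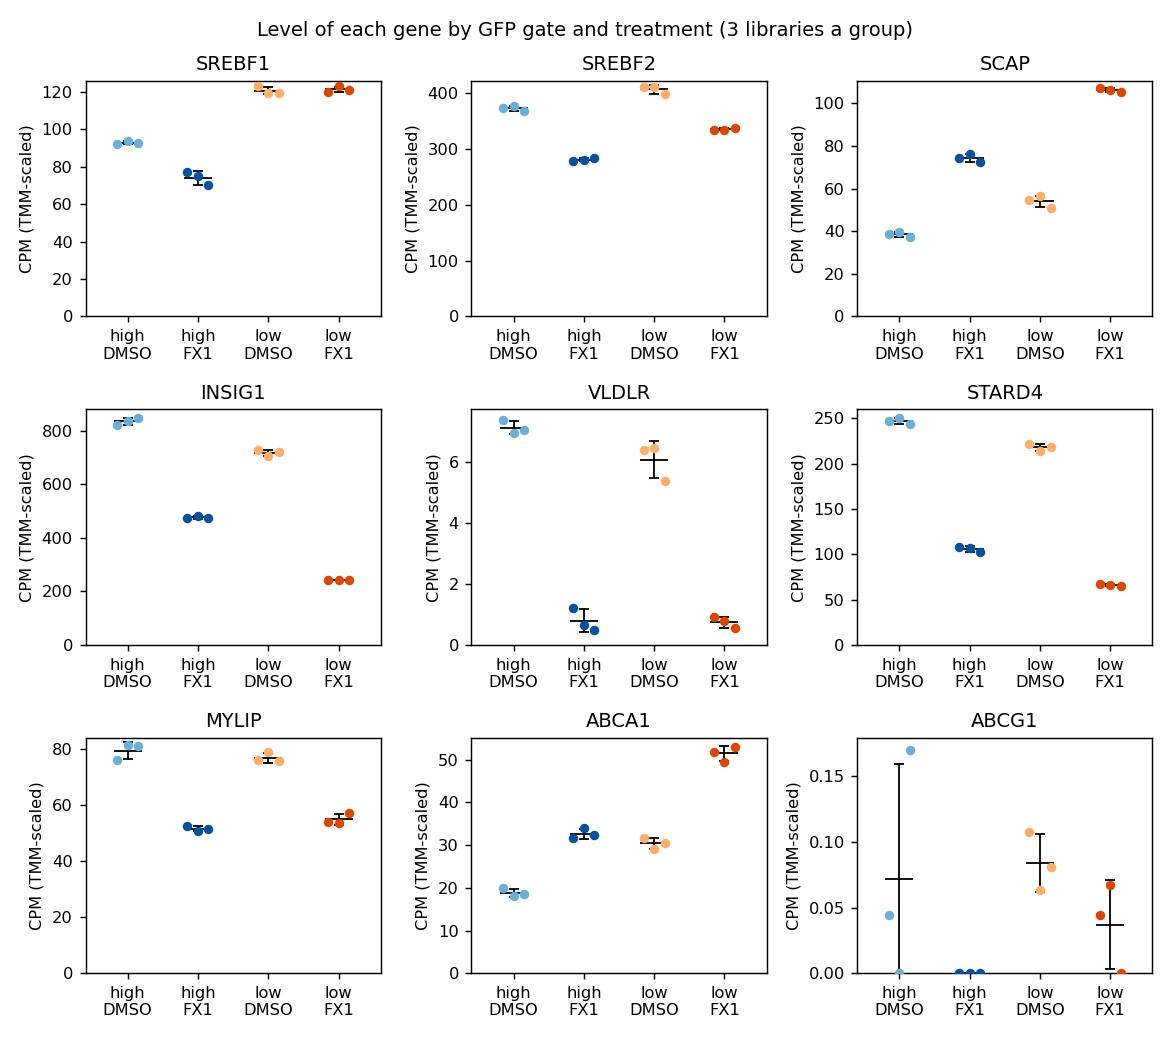
Level of each of the 9 genes in the 12 libraries, as TMM-scaled CPM on axes that start at 0; each point is 1 library, and the black bar and whiskers are the mean and SD of 3 libraries. The FX1 libraries of INSIG1, VLDLR, STARD4 and MYLIP all lie under the DMSO libraries, those of SCAP and ABCA1 lie above within each gate, and ABCG1 is at or near 0 everywhere.

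SREBF2, which encodes the factor that chiefly drives cholesterol genes, is at chr22:41833079-41907307. It stood at 372, 377 and 367 CPM in GFP-high DMSO libraries and at 277, 280.2 and 283 with FX1. In GFP-low cells it stood at 410.4, 410.9 and 397 CPM with DMSO and at 334, 334 and 337 with FX1. All 6 FX1 libraries were under all 6 DMSO libraries. The fall was 1.33-fold in GFP-high cells (log2 -0.41 ± 0.016 SE, adjusted p = 3.91e-68) and 1.21-fold in GFP-low cells (log2 -0.28 ± 0.016, adjusted p = 2.26e-44). Without the GC and length trend, the falls were -0.60 and -0.61. SREBF2 shares 280 exon bases, 3.71% of its exon length, with SREBF2-AS1 on the other strand, and the strand setting of the counting is not given in the sources used here.

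SREBF1, whose product drives fatty acid genes for the most part, is at chr17:17810399-17837002. Its GFP-high libraries gave 92.2, 93.8 and 92.8 CPM with DMSO and 77.2, 75.1 and 70.1 with FX1. Its GFP-low libraries gave 123, 119.7 and 119 CPM with DMSO and 120.2, 123 and 121 with FX1. The treatments separated in GFP-high cells and overlapped in GFP-low cells. The log2 differences were -0.33 ± 0.030 (adjusted p = 3.27e-22) and 0.01 ± 0.027 (adjusted p = 0.84, interval -0.05 to 0.06). This gene has the highest GC content of the 9, and after removal of the GC and length trend the differences became -0.63 and -0.48, the second with an adjusted p of 1.92e-45. SREBF1 shares 556 exon bases, 6.75% of its exon length, with RAI1 on the other strand. RAI1 had 1082 to 4039 counts per library, beside 2067 to 5416 for SREBF1. The strand setting is not given, and how far reads from RAI1 enter the SREBF1 differences was not tested.

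The escort gene and the retention gene moved in opposite directions. SCAP (chr3:47413681-47477126), whose product carries SREBPs to the Golgi, stood at 38.7, 39.7 and 37.1 CPM in GFP-high DMSO libraries and at 74.2, 76.2 and 72.5 with FX1. In GFP-low cells it stood at 54.5, 56.5 and 51.1 CPM with DMSO and at 107, 106 and 105 with FX1. The rise was 1.92-fold (log2 0.94 ± 0.037, adjusted p = 5.44e-69) and 1.96-fold (log2 0.97 ± 0.033, adjusted p = 2.16e-80), and treatments did not overlap in either gate. SCAP transcripts hold 62.3% GC, and with the trend removed the rises were 0.66 and 0.51.

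INSIG1 (chr7:155297776-155310235), which anchors SCAP in the endoplasmic reticulum, gave 822, 836 and 850.0 CPM in GFP-high DMSO libraries and 475, 483 and 474 with FX1. In GFP-low libraries it gave 727, 705 and 722 CPM with DMSO and 243, 242 and 245 with FX1. The 4 groups did not overlap, and the GFP-low FX1 libraries were the lowest. INSIG1 fell 1.75-fold in GFP-high cells (log2 -0.81 ± 0.014, adjusted p = 2.28e-142) and 2.95-fold in GFP-low cells (log2 -1.56 ± 0.015, adjusted p = 1.4e-199). Removal of the trend left -0.72 and -1.47.

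VLDLR (chr9:2621182-2660056), a receptor of the lipoprotein receptor family, was low to begin with. It stood at 7.36, 6.95 and 7.05 CPM in GFP-high DMSO libraries and at 1.22, 0.649 and 0.504 with FX1. The GFP-low libraries were at 6.40, 6.44 and 5.37 CPM with DMSO and at 0.910, 0.774 and 0.551 with FX1. Every FX1 library was under every DMSO library. Between 12 and 222 reads per library lie behind these values, and the log2 differences of -3.13 ± 0.18 (adjusted p = 5.85e-44) and -2.96 ± 0.18 (adjusted p = 4.63e-39) carry the widest errors of the 8 genes. On the other strand, the unnamed gene ENSG00000286670 shares 1100 bases (6.66% of the exon length of VLDLR) and had 8 to 26 counts, and VLDLR-AS1 shares 260 bases and had 2 to 28 counts. In the FX1 libraries these ranges are of the size of the VLDLR counts themselves, so the depth of the fall is uncertain.

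STARD4 (chr5:111496033-111512590), a soluble protein that carries cholesterol between membranes, stood at 247, 250.4 and 243 CPM in GFP-high DMSO libraries and at 108, 107 and 103 with FX1. The GFP-low libraries stood at 221, 214 and 219 CPM with DMSO and at 67.2, 66.3 and 65.0 with FX1. No group overlapped another. The log2 falls were -1.22 ± 0.022 (adjusted p = 4.46e-135) and -1.72 ± 0.025 (adjusted p = 2.53e-159). With the trend removed they were -1.14 and -1.35. STARD4-AS1 on the other strand shares 124 exon bases and had 4 to 19 counts per library.

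MYLIP (chr6:16129086-16148248), also called IDOL, gave 76.0, 81.3 and 80.9 CPM in GFP-high DMSO libraries and 52.4, 50.7 and 51.6 with FX1. In GFP-low libraries it gave 76.0, 78.8 and 75.6 CPM with DMSO and 53.8, 53.6 and 57.3 with FX1. The FX1 libraries of both gates lay under the DMSO libraries of both gates. The log2 falls were -0.62 ± 0.035 (adjusted p = 3.4e-45) and -0.49 ± 0.035 (adjusted p = 6.33e-33).

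The exporter ABCA1 (chr9:104781006-104928155), which loads cholesterol onto apolipoprotein A-I, moved the other way from MYLIP although both are LXR targets in other settings. Its GFP-high libraries gave 19.9, 18.1 and 18.5 CPM with DMSO and 31.7, 34.0 and 32.3 with FX1. Its GFP-low libraries gave 31.6, 29.1 and 30.4 CPM with DMSO and 51.9, 49.5 and 53.1 with FX1. ABCA1 rose 1.74-fold (log2 0.80 ± 0.054, adjusted p = 1.9e-34) and 1.69-fold (log2 0.76 ± 0.046, adjusted p = 1.76e-40), and removal of the trend left 0.81 and 0.77. ABCG1 (chr21:42199689-42297244), which hands cholesterol to formed lipoproteins, had 16 counts in the 12 libraries together. Its sums over 3 libraries were 5 counts with DMSO and 0 with FX1 in GFP-high cells, and 7 and 4 in GFP-low cells. A sum of 0 allows up to 3 counts, or 0.0301 CPM over the GFP-high FX1 group (counting error only), and no difference was detectable at this depth.

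**Figure D2:**
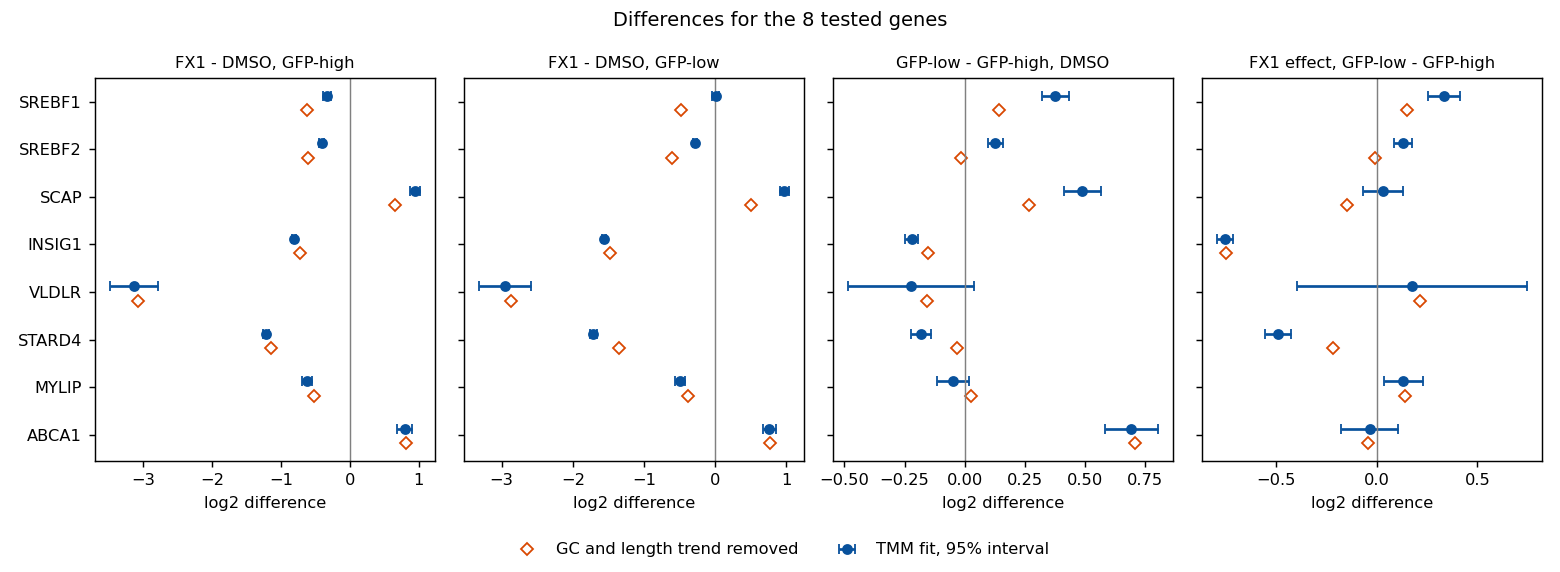
Log2 differences of the 8 tested genes for FX1 in each gate, for GFP-low against GFP-high cells with DMSO, and for the FX1 effect in GFP-low minus that in GFP-high cells; filled points are the TMM fit with 95% intervals, open diamonds the fit with the GC and length trend removed, and each panel has its own scale. SREBF1 in GFP-low cells moves from 0.01 to -0.48, while INSIG1, ABCA1 and VLDLR move by at most 0.09 in the FX1 panels.

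The gates were also compared without the compound. With DMSO, ABCA1, SCAP, SREBF1 and SREBF2 were higher in GFP-low than in GFP-high cells, and INSIG1 and STARD4 were lower. These were 6 of 8 genes, 4 higher and 2 lower, where 46.1% of all tested genes passed (21.7% higher, 24.4% lower). The median difference was 0.04, against 0.03 over all tested genes. Differences were small: ABCA1 was 1.62-fold higher (log2 0.69 ± 0.056, adjusted p = 3.53e-26), SCAP 1.40-fold (0.49 ± 0.040, adjusted p = 4.72e-26), SREBF1 1.30-fold (0.38 ± 0.029, adjusted p = 4.47e-29) and SREBF2 1.09-fold (0.13 ± 0.016, adjusted p = 7.28e-13). INSIG1 was 1.16-fold lower (log2 -0.22 ± 0.014, adjusted p = 4.04e-39) and STARD4 1.13-fold lower (log2 -0.18 ± 0.021, adjusted p = 4.78e-15). None of the 8 passed a test against a 1.5-fold floor, which 1.11% of all genes passed (glmTreat). VLDLR (log2 -0.22 ± 0.13, adjusted p = 0.164) and MYLIP (log2 -0.05 ± 0.034, adjusted p = 0.237) were not called. Once the trend was removed, the difference of SREBF2 was -0.01 (adjusted p = 0.51) and that of STARD4 -0.03 (adjusted p = 0.203), so neither call held. Those of SREBF1 and SCAP came down to 0.14 and 0.27 and stayed past the threshold.

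With FX1 the distance between the gates was wider for INSIG1, which was 1.96-fold lower in GFP-low cells (log2 -0.97 ± 0.015, adjusted p = 5.28e-150), and for STARD4, which was 1.60-fold lower (log2 -0.67 ± 0.026, adjusted p = 8e-69). SREBF1 was 1.64-fold higher (log2 0.71 ± 0.028, adjusted p = 2.29e-68), ABCA1 1.58-fold (0.66 ± 0.044, adjusted p = 9.62e-35), SCAP 1.43-fold (0.52 ± 0.031, adjusted p = 1.35e-41) and SREBF2 was higher by 0.26 ± 0.016 (adjusted p = 2.77e-38). In all, 7 of 8 genes passed, 5 higher and 2 lower, where 56.9% of all tested genes passed (30.2% higher, 26.7% lower). The medians were 0.17 and 0.08. SREBF1, INSIG1 and STARD4 passed the 1.5-fold floor, which 4.08% of all genes passed. After removal of the trend, SREBF1 stood at 0.29, SCAP at 0.12, STARD4 at -0.25 and SREBF2 at -0.02 (adjusted p = 0.258). MYLIP passed narrowly (log2 0.08 ± 0.036, adjusted p = 0.0399). That call was lost when GFP-high DMSO replicate 1, 2 or 3, GFP-high FX1 replicate 2 or 3, or GFP-low FX1 replicate 3 was left out, with log2 values of 0.03 to 0.09, and the adjusted p over all alternatives without the floor ran from 2.51e-05 to 0.433. DESeq2's size factors (0.112), DESeq2 (0.167), no low-count filter (0.0518), the fit to the compared groups alone (0.304) and scaling without mitochondrial and dominant genes (0.355) lost it too. That last scaling moved log2 values in this comparison by a median of -0.042, beside the MYLIP SE of 0.036. The GFP-high DMSO libraries are not part of this comparison, so leaving them out acts only through the shared filter, scaling and fit. VLDLR was not called (log2 -0.05 ± 0.26, adjusted p = 0.888).

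The FX1 effect itself was tested for a difference between the gates, as the effect in GFP-low minus that in GFP-high cells. INSIG1 and STARD4 fell further in GFP-low cells, by -0.75 ± 0.020 (adjusted p = 2.23e-98) and -0.49 ± 0.034 (adjusted p = 5.09e-33) on the log2 scale. The differences of SREBF1 (0.33 ± 0.040, adjusted p = 1.47e-13) and SREBF2 (0.13 ± 0.023, adjusted p = 2.75e-07) were positive, their falls being smaller or not called in GFP-low cells. These and MYLIP (0.13 ± 0.049, adjusted p = 0.0281) made 5 of 8 genes, 3 higher and 2 lower, where 31.3% of all tested genes passed (14.8% higher, 16.5% lower). The median was 0.08 for the 8 genes and 0.02 for all. Over all genes, 47.2% of the calls were positive, and 35.8% once mitochondrial and dominant genes (above 1% of a library) were left out before scaling. INSIG1 was the single one of the 8 past the 1.5-fold floor, which 0.846% of all genes passed.

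Removal of the GC and length trend left the INSIG1 difference at -0.75, reduced that of STARD4 to -0.22 and that of SREBF1 to 0.15 (adjusted p = 0.0012), and took that of SREBF2 to -0.01 (adjusted p = 0.845). The MYLIP call was lost without GFP-high DMSO replicate 1, 2 or 3, GFP-high FX1 replicate 2, GFP-low DMSO replicate 1 or 3, or GFP-low FX1 replicate 3 (log2 0.07 to 0.12, adjusted p up to 0.403). It was also lost with DESeq2's size factors (adjusted p = 0.0568), DESeq2 (0.103), no low-count filter (0.101) and scaling without mitochondrial and dominant genes (0.173). For ABCA1 the FX1 effects differed by -0.03 ± 0.072 (interval -0.18 to 0.11, adjusted p = 0.77), and for SCAP by 0.03 ± 0.050 (interval -0.07 to 0.13, adjusted p = 0.723). With the trend removed, the SCAP difference was -0.15 and called (adjusted p = 0.0154). For VLDLR the interval ran from -0.40 to 0.75 (adjusted p = 0.712).

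Per exon length, the levels of the 9 genes spanned several orders of magnitude. INSIG1 led in each group, at 229 ± 3.78 RPKM (SD, n = 3) with DMSO and 131 ± 1.40 with FX1 in GFP-high cells, and at 197 ± 3.25 and 66.6 ± 0.380 in GFP-low cells. SREBF2 was next in all 4 groups, with means of 37.1 to 53.7 RPKM, and SREBF1 lay lower, at 14.7 or less. STARD4 came after SREBF2 with DMSO, at 43.5 ± 0.617 RPKM in GFP-high and 38.3 ± 0.693 in GFP-low cells. In GFP-low FX1 libraries it was sixth, at 11.6 ± 0.196, under MYLIP (17.9 ± 0.677), SCAP (16.9 ± 0.119) and SREBF1 (14.7 ± 0.183). ABCA1 stayed between 1.66 and 4.54 RPKM, VLDLR between 0.0451 and 0.431, and ABCG1 was the lowest throughout.

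**Figure D3:**
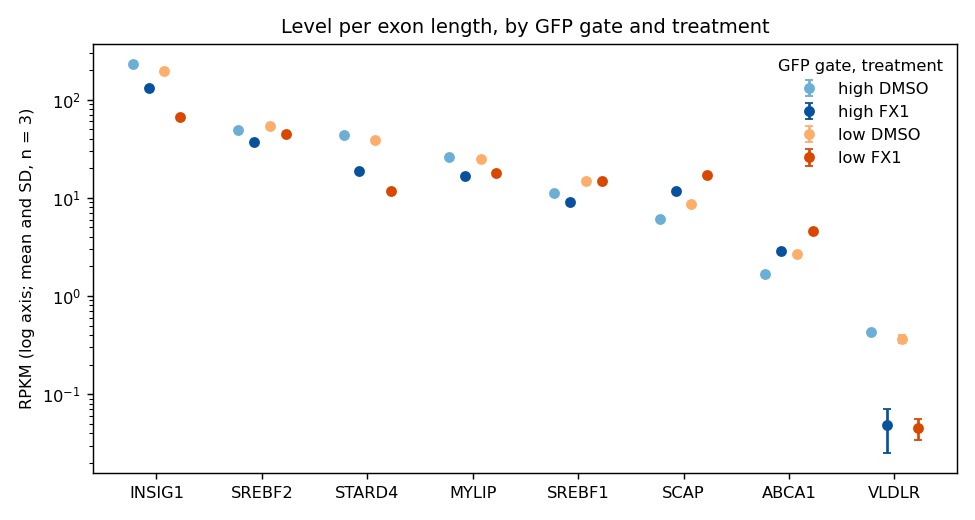
RPKM of the 8 tested genes on a log axis, as mean and SD of 3 libraries per group, with genes ordered by their GFP-high DMSO mean. INSIG1 is highest in each group, and STARD4 drops from 38.3 to 11.6 RPKM with FX1 in GFP-low cells while SCAP rises from 8.59 to 16.9.

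Within a gene, the order of the 4 groups by TMM-scaled mean CPM fell into 3 kinds of pattern. INSIG1, STARD4 and VLDLR were highest in GFP-high DMSO libraries and lowest in GFP-low FX1 libraries, except that the FX1 groups of VLDLR overlapped. SCAP and ABCA1 ran the reverse way, from GFP-high DMSO at the bottom through GFP-low DMSO and GFP-high FX1 to GFP-low FX1 at the top, with neighbours that did not overlap. SREBF1, SREBF2 and MYLIP were lowest in GFP-high FX1 libraries. For SREBF1 the top pair of groups, and for MYLIP the DMSO groups, did not separate. Other steps of these orders depend on the processing (edgeR). VLDLR was not called between the gates with DMSO (adjusted p = 0.164). Trend removal took STARD4 between the gates with DMSO to -0.03 (adjusted p = 0.203). It took SREBF2 between the gates with FX1 to -0.02 (adjusted p = 0.258). The MYLIP call between the gates with FX1 was lost in 11 of 20 alternatives.

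The other genes of the pathway were read from lists that hold none of the 9. Over all tested genes, 33.8% rose and 34.6% fell with FX1 in GFP-high cells, and 33.7% and 34.3% in GFP-low cells. Counts near these shares set a list apart little. Among 19 cholesterol synthesis enzymes, which SREBP2 controls, 17 fell and 0 rose with FX1 in GFP-high cells, and 16 fell and 1 rose in GFP-low cells, with medians of -1.09 and -1.27. Freed of the GC and length trend, 17 and 18 fell and 0 rose, with medians of -1.10 and -1.19. HMGCS1, an early enzyme of the mevalonate pathway, fell most of the 19 (log2 -2.39 ± 0.015 and -2.57 ± 0.016), and ACAT2, the acetoacetyl-CoA thiolase that precedes it, came next (-1.99 ± 0.024 and -1.93 ± 0.025). The gene that rose was TM7SF2, a sterol reductase, at 0.12 ± 0.043 (adjusted p = 0.00844), and once the GC and length trend was removed its value was -0.28. The effect differed between the gates for 9 of the 19, with 2 positive and 7 negative differences and a median of -0.04. For that difference 31.3% of all tested genes passed, 14.8% higher and 16.5% lower.

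Of 10 tested fatty acid synthesis genes, most of them SREBP1 targets, 7 fell and 1 rose in each gate, with medians of -0.37 and -0.40. Falls made up 34.6% and 34.3% of all tested genes. Removal of the trend gave 7 falls and 1 rise in GFP-high and 8 falls and 2 rises in GFP-low cells, with larger medians of -0.58 and -0.60. SCD, the stearoyl-CoA desaturase, fell in both gates (log2 -1.60 ± 0.012 and -1.52 ± 0.012), and the fatty acid desaturase FADS1 fell 2.45-fold and 2.83-fold. LPIN1, a phosphatidate phosphatase, rose by 0.29 ± 0.053 and 0.38 ± 0.050.

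The 11 other genes of SREBP processing (INSIG2 among them is also on the fatty acid list) showed no common direction: 5 rose and 3 fell in GFP-high cells, and 5 rose and 4 fell in GFP-low cells, with medians of -0.03 and -0.00. Over all tested genes 68.4% passed in GFP-high and 68% in GFP-low cells, so these counts alone say little of the list. Without the trend 5 rose and 2 fell, and 5 rose and 3 fell, with medians of 0.05 and 0.08. SPRING1, a cofactor of the Golgi protease that makes the first cut in SREBPs, rose by 0.50 ± 0.031 in GFP-high and 0.34 ± 0.031 in GFP-low cells, and the ligase gene RNF139 by 0.44 ± 0.046 and 0.32 ± 0.049. RNF145, another membrane ubiquitin ligase, fell (-0.36 ± 0.034 and -0.21 ± 0.034), as did FBXW7 (-0.26 ± 0.031 and -0.21 ± 0.032), which marks nuclear SREBPs for degradation. MBTPS1, the site-1 protease, rose by 0.32 ± 0.026 and 0.39 ± 0.025, and ERLIN2 by 0.31 ± 0.052 and 0.35 ± 0.053. PAQR3, which tethers SCAP to the Golgi, stood at -0.03 ± 0.041 (adjusted p = 0.457) in GFP-high cells and fell in GFP-low cells (-0.49 ± 0.045). MBTPS2, the site-2 protease, stood at -0.04 ± 0.042 (adjusted p = 0.373) and fell in GFP-low cells (-0.23 ± 0.043). The tested difference between the gates was -0.45 ± 0.060 for PAQR3 (adjusted p = 2.86e-11) and -0.19 ± 0.060 for MBTPS2 (adjusted p = 0.00702). In GFP-low cells, removal of the trend took PAQR3 to -0.17 and MBTPS2 to 0.08 (adjusted p = 0.0822).

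Among 7 tested LXR receptors, partners and further targets, 3 rose and 2 fell in GFP-high cells and 5 rose and 1 fell in GFP-low cells, with medians of 0.26 and 0.45. Of all tested genes 68.4% and 68% passed, and 33.8% and 33.7% rose, so counts from 7 genes say little. After removal of the trend, 3 rose and 2 fell in GFP-high and 4 rose and 1 fell in GFP-low cells, with lower medians of 0.17 and 0.25. NR1H2, which encodes LXR beta, rose by 0.65 ± 0.055 and 0.68 ± 0.050, and these were 0.48 and 0.37 with the trend removed. NR1H3, which encodes LXR alpha, rose in GFP-low cells by 0.73 ± 0.14 (adjusted p = 3.36e-07), from a mean of 3.41 to 5.63 CPM, and stood at 0.28 ± 0.15 (adjusted p = 0.0862) in GFP-high cells. The effects on NR1H3 in the 2 gates differed by 0.45 ± 0.20 (adjusted p = 0.075). RXRB, a receptor that pairs with LXR, rose by 0.31 ± 0.044 in GFP-high and 0.52 ± 0.040 in GFP-low cells, and by 0.17 and 0.25 with the trend removed. PLTP, a phospholipid transfer protein, fell in both gates (-2.48 ± 0.48 and -1.58 ± 0.35), but rests on 3 to 41 counts per library. SMPDL3A passed narrowly in GFP-high cells (-0.19 ± 0.089, adjusted p = 0.0445), stood at -0.18 ± 0.092 (adjusted p = 0.0665) in GFP-low cells, and came to -0.02 (adjusted p = 0.874) in GFP-high cells once the trend was removed.

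Of 15 tested genes of sterol uptake, transport and storage, 7 rose and 7 fell in GFP-high cells and 5 rose and 4 fell in GFP-low cells, with medians of 0.02 and -0.02. That balance depends on the scaling: with the trend removed, 6 rose and 8 fell in GFP-high and 4 rose and 8 fell in GFP-low cells, with medians of -0.08 and -0.11. In the main fit 68.4% and 68% of all tested genes passed. LRPAP1, a chaperone of the lipoprotein receptor family to which VLDLR belongs, rose by 0.72 ± 0.038 and 0.82 ± 0.037. LRP8, the closest relative of VLDLR, rose by 0.35 ± 0.023 and 0.55 ± 0.023. TMEM97, an endoplasmic reticulum protein of sterol transport, fell in both gates, at log2 -0.77 ± 0.028 and -1.004 ± 0.029. GRAMD1C fell by log2 -0.65 ± 0.12 and -0.32 ± 0.11, and the second of these was lost with the trend removed (-0.11, adjusted p = 0.375). The oxysterol-binding OSBP fell in both gates (-0.43 ± 0.026 and -0.40 ± 0.027, adjusted p of the difference 0.663). VLDLR and LRP8 went in opposite directions with FX1 in both gates.

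**Figure D4:**
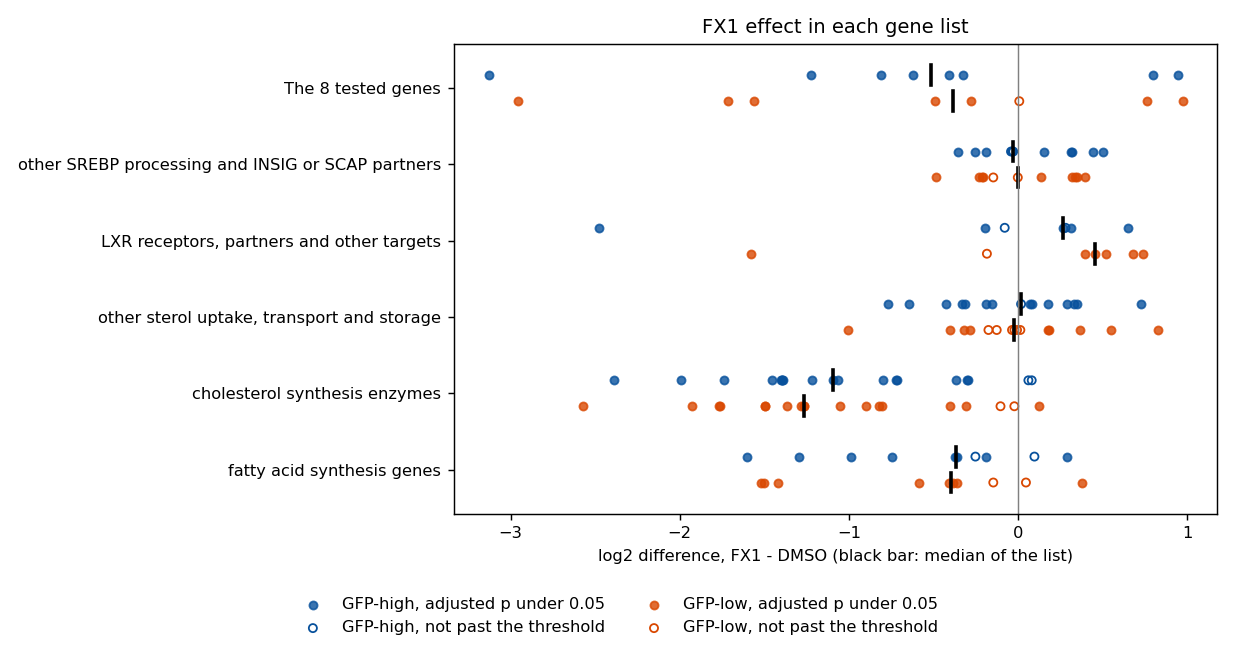
Log2 FX1 effect of each tested gene in the 8 genes described and the 5 other lists, with GFP-high cells above and GFP-low cells below in each row; filled points passed an adjusted p of 0.05 and black bars are medians. The cholesterol synthesis enzymes lie mostly under 0, with medians of -1.09 and -1.27, and the SREBP processing and sterol transport lists are spread on both sides of 0 in this TMM fit.

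The 2 genes closest to each of the 8 were found among 9472 protein-coding genes by the root-mean-square difference of centred log2 CPM over the 12 libraries. Likeness was tightest for SREBF2, to PHGDH (0.029) and CLSTN1 (0.033), and for MYLIP, to ALDH1L1 (0.032) and CALM3 (0.050). SREBF1 was closest to PRR7 (0.050) and TBC1D17 (0.056), SCAP to CDIPT (0.047) and PNPLA6 (0.058), and INSIG1 to NCR2 (0.058) and CENPK (0.085). STARD4 was closest to CCNG1 (0.070) and EVL (0.077), and ABCA1 to ORAI2 (0.073) and PIGQ (0.082). VLDLR was least closely matched, by VPREB3 (0.27) and CHI3L2 (0.36), at its low counts. None of these 16 genes was on the pathway lists.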

How the data were processed

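RNA was sequenced in 12 Raji libraries after depletion of ribosomal RNA, per the labels' protocols. Reads were aligned with STAR to hg38 and counted per gene with featureCounts of Subread, with FastQC and R 4.2.1 also named, per the submitters' processing notes. Each deposited value is a raw count of reads over a gene's exons, per the file headers. The annotation release, the strand setting and the versions of these tools are not given in the sources used here, so counts of overlapping genes on opposite strands may mix. Of 60710 lines in the table, 3 that form 1 broken record were left out, and 99.67% of the genes had a symbol in the reference annotation. Count columns without a sample numbered 0.

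Tests used edgeR 4.0.16 (R 4.3.3): filterByExpr left 17859 genes, libraries were scaled by TMM, and a robust quasi-likelihood model with 1 term per group was fitted to all 12 libraries (8 residual degrees of freedom, common biological coefficient of variation 1.67%). P-values were adjusted by Benjamini-Hochberg over all tested genes, with a threshold of 0.05. Errors of log2 values are standard errors, the size of the difference over the square root of its F statistic. CPM and RPKM were computed from the counts with TMM-scaled totals, RPKM with the exon length in the file. Library totals set the precision, and since no molecular identifiers were used, limits from counts cover counting error only. Alternatives were DESeq2's size factors, DESeq2 1.42.0, no filter, the replicate number as a block, a filter of 50 counts in 3 libraries, a fit to the compared groups alone, scaling without mitochondrial and dominant genes (above 1% of a library), a smooth trend on GC content and length removed (mgcv 1.9.3, 17557 genes), a 1.5-fold floor (glmTreat) and leaving out each library. The test was also run on simulated libraries in which few genes changed. That setting is unlike the broad FX1 change here, so its outcome is not used as support.

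The 9 genes, the lists and the tests were chosen with earlier results of these data known. The genes named are the 9, the 2 most like each (mean log2 CPM of at least 2), from each pathway list the 2 largest called rises and falls in each FX1 comparison, and genes that overlap the 9. SMARCA4 and BCL6 were added as the targets of the system and the compound.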

Additional observations from a re-analysis of the deposited data

Results flagged for a closer look

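For 5 of the 8 tested genes the FX1 effect differed between the gates by a test of that difference (edgeR, all 4 groups). Over all tested genes, 31.3% passed. INSIG1 differed by -0.75 on the log2 scale and STARD4 by -0.49. For both genes, all FX1 libraries lay under all DMSO libraries within each gate. The SREBF1 difference was 0.33, that of SREBF2 0.13 and that of MYLIP 0.13, the last with an adjusted p of 0.0281. With the GC and length trend removed, STARD4 came to -0.22, SREBF1 to 0.15 and SREBF2 to -0.008 (adjusted p = 0.845). The MYLIP call was lost in 11 of 19 alternatives. Mitochondrial genes took 7.88% ± 0.034 (SD, n = 3) of counts in GFP-high DMSO libraries and 4.28% ± 0.043 once FX1 was added. The GFP-low libraries stood at 4.76% ± 0.064 with DMSO and 5.09% ± 0.037 with FX1. Groups of 3 libraries are too small for a search for single libraries that stand apart.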

How the results depend on the processing

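Against the 1.5-fold floor (glmTreat), 3674 genes were called for FX1 in GFP-high cells, 3606 in GFP-low cells, 199 between the gates with DMSO, 728 between the gates with FX1 and 151 for the FX1 effect compared between gates. Of the 8 genes described, 5, 5, 0, 3 and 1 passed it. The main fit called 12224, 12138, 8233, 10158 and 5583 genes. Leaving out 1 library at a time gave 11475 to 12379, 11440 to 12293, 7451 to 8275, 9387 to 10205 and 5167 to 5432 genes, and 8 to 8, 7 to 7, 6 to 6, 6 to 7 and 4 to 5 of the 8.

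Signs turned only for differences that the main fit did not call or whose call was lost. With the GC and length trend removed, SREBF1 was called as a fall for FX1 in GFP-low cells (edgeR, adjusted p = 1.92e-45). The SCAP difference of the FX1 effect was then called as negative (adjusted p = 0.0154). The SREBF1 difference for FX1 in GFP-low cells was -0.0042 with DESeq2's size factors, -0.0036 with DESeq2, -0.035 without mitochondrial and dominant genes, -0.48 with the GC and length trend removed, and -0.039 to 0.025 with 1 library left out. The same trend removal took SREBF2 to -0.014 (DMSO) and -0.022 (FX1) between the gates and to -0.008 for the change in the FX1 effect, MYLIP between the gates with DMSO to 0.024, VLDLR between the gates with FX1 to 0.057, and the SCAP difference of the FX1 effect to -0.15. The last was -0.014 without mitochondrial and dominant genes and -0.043 to 0.063 with 1 library left out. For VLDLR, leaving out 1 library gave -0.30 to 0.45 between the gates with FX1 and -0.076 to 0.67 for the gate difference in the FX1 effect. The cause was not tested.

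Of 480 values with 1 library left out, 456 kept their direction and call, 13 lost the call (all MYLIP) and 11 turned sign. With 50 counts in 3 libraries as the filter, 40 of 40 values kept both. The groups-only fit gives no value for the difference of the FX1 effect, which needs all 4 groups. With the replicate number as a block, 12184, 12101, 8213, 10111 and 5536 genes and 8, 7, 6, 7 and 5 of the 8 were called, and no call on the 8 changed. Same-numbered libraries did not deviate together (r -0.039 to 0.02, and 1 of 12 libraries correlated best with its own number). Among libraries this alike, that cannot decide whether those of the same number share a culture, which the labels do not give. Low counts limit VLDLR, PLTP and ABCG1.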
